A study of Xenopus tropicalis with 52 samples.

Results

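The apoptosis machinery was followed through the first hours of Xenopus tropicalis development. Its members were all genes of the count tables whose name marks a caspase, a Bcl2 family protein, an apoptosome component, an inhibitor of apoptosis or its antagonist, a DNA fragmentation factor, an adaptor or kinase of death receptor signalling, a tumour necrosis factor receptor, a pdcd gene or an aifm gene. This rule, which uses gene names and no measured value, found 57 of 22571 genes, 55 in the table shared by Series 1 and Series 2 and 57 in the table of Series 3. The members fell into 8 caspases, 1 caspase-8 associated gene, 4 anti-apoptotic, 2 pore-forming, 1 BH3-only and 3 other Bcl2-like genes, 2 apoptosome genes, 6 inhibitors of apoptosis (IAPs) with 1 antagonist, 2 DNA fragmentation genes, 6 adaptors or kinases, 9 receptors, 9 pdcd genes and 3 aifm genes. Rows named bax, bcl2l1, bid, bad, bik or bbc3 were not among them.

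Apoptosis is the orderly dismantling of a cell by caspases, proteases that are made as inactive precursors. In the mitochondrial route, pore-forming Bcl2 proteins release cytochrome c, which joins apaf1 in the apoptosome and activates caspase-9. In the receptor route, a ligand gathers adaptors and initiator caspases at a death receptor. Both routes end in executioner caspases and are held back by IAPs, and anti-apoptotic Bcl2 proteins hold back the mitochondrial route. In frog embryos both routes draw on stores of maternal RNA and protein before the embryo transcribes its own genes. In Xenopus laevis, damaged cells are known to be removed by apoptosis from the early gastrula onwards.

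Whole embryos with no treatment were sampled at intervals of 0.5 h after a single fertilisation in each of 3 series, each from eggs of 1 female. Series 1 (7 polyA+ libraries, 0 to 3.0 h post fertilisation, hpf) and Series 2 (17 polyA+ libraries, 2.5 to 9.5 hpf, with 2 libraries each at 4.5 and 6.5 hpf) used pools of 50 embryos, whereas Series 3 used pools of 10 embryos from another frog colony, another library kit and another sequencer, and developed more slowly. Embryos that cleaved early or late were taken out of each pool's clutch. RNA of Series 3 was split into 19 polyA+ libraries (0 to 9.0 hpf), which hold RNA with a poly(A) tail, and 9 Ribo-Zero libraries (whole hours to 8.0 hpf), which hold RNA with or without a tail after removal of ribosomal RNA. The molecule label of those 9 libraries names polyA RNA, but their titles carry the tag rz, and the titles and the methods of the study were followed. At about 5.0 hpf in Series 1 and 2, and about 1.0 h later in Series 3, the embryo's genome starts bulk transcription, the mid-blastula transition. The study places the first zygotic onsets earlier, from about 3.0 hpf in Series 1 and 2, so libraries from that hour on are not free of transcription. Multiplied by 0.8, the times of Series 3 match the clock of the other series, so its last library at 9.0 hpf corresponds to 7.2 hpf.

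Levels are given as normalised reads, that is reads of a gene per 25000000 reads of the library without ribosomal RNA, and are not divided by gene length, so they are compared within a gene only. Total counts per library were 19925593 to 24659133 in Series 1, 22791007 to 33907947 in Series 2, 4539916 to 17998536 in the polyA+ and 5326857 to 13562259 in the Ribo-Zero libraries of Series 3, and a count of 0, which allows up to 3 counts, is at most 19.5 normalised reads. Libraries at successive times stood in for replicates in each test, so every p-value measures the spread between time points of 1 clutch. A change per embryo cannot be told apart from a change in the number of cells or in the RNA of each cell. At the single hours of Series 2 with 2 libraries, values were compared after adding 10 reads to each, which shrinks the folds of low genes. On that scale the larger value of a member exceeded the smaller by a median factor of 1.11 at 4.5 hpf and 1.15 at 6.5 hpf. There, 5 and 3 of the 55 members differed by over 1.5-fold, and members without reads counted as equal. For example, pdcd2 had 6.86 and 55.8 normalised reads at 4.5 hpf and entered as 3.90-fold. Of the genes that mark other cells a spawn could carry, those with rows for follicle and blood cells stayed at or below 24.3 normalised reads in Series 2, whereas germ layer genes were at 0 to 8.14 at 2.5 hpf and at 381 to 12820 at 9.5 hpf.

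Most members were present as maternal RNA, whereas pore-forming genes and casp8 were hardly detected. In the Ribo-Zero libraries 46 of 57 members reached 10 normalised reads at 0 hpf, and 43 of 55 did so in polyA+ Series 1. In that Ribo-Zero library 1 count was worth 2.45 normalised reads, so this level is only a few counts. The share of all genes at that level is not given, so the counts show nothing particular to the members. The genes bak1 and bok, whose products open the mitochondrial outer membrane, and casp8, the initiator caspase of death receptors, stayed under 10 counts in every library, as did casp1, ripk3 and 4 of 9 receptors. bak1 had 0 to 0.904 normalised reads in Series 2 and 0 to 14.6 in the Ribo-Zero libraries. bok had 0 to 4.67 in Series 2 and 0 to 6.48 in the Ribo-Zero libraries, and casp8 had 0 to 4.14 in Series 2 and 0 to 6.53 in the Ribo-Zero libraries. The initiator casp10, which shares the receptor route with caspase-8 in mammals, had 940.1 to 1555 normalised reads in the Ribo-Zero libraries. At these low counts a change in bak1, bok or casp8 was not detectable. Of the other members, bcl2l10 and tnfrsf11a passed the count minimum of no comparison, and between 37 and 46 members passed it in each.

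**Figure D1:**
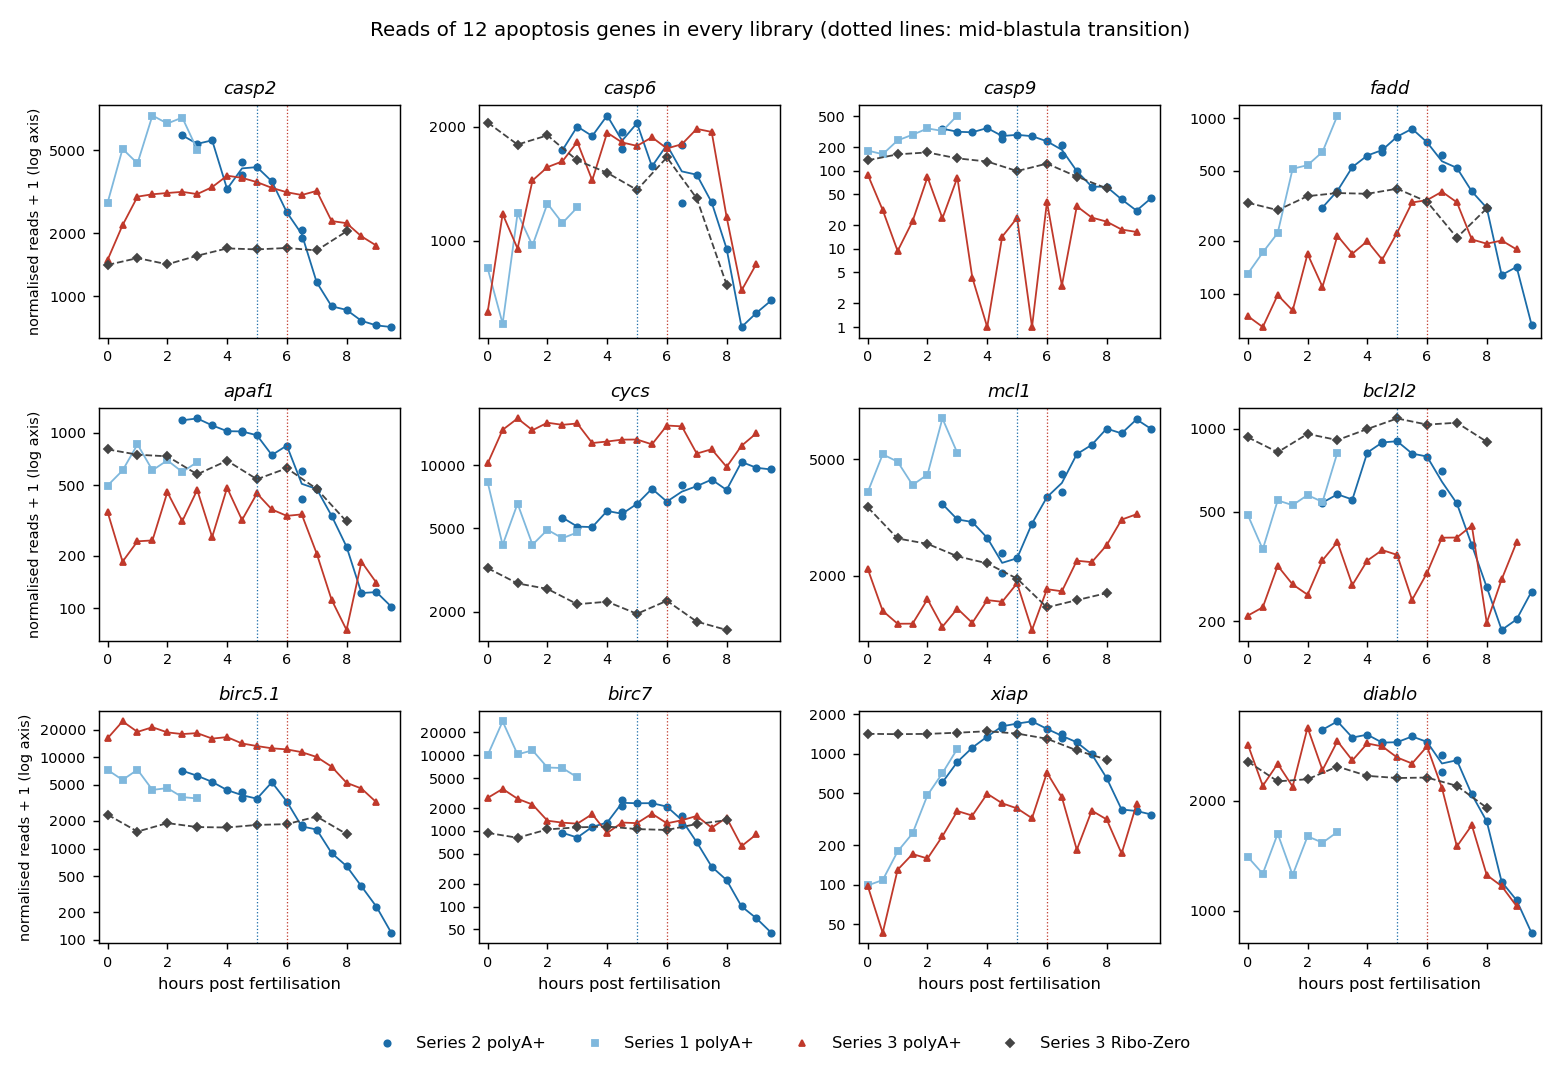
Normalised reads plus 1 (log axis) of 12 members against hours post fertilisation, with a point for each library of Series 2, Series 1, Series 3 polyA+ and Series 3 Ribo-Zero and lines through the means of each hour. In Series 2 birc5.1 ended at 119 and mcl1 at 6336 normalised reads, and the dotted lines mark the mid-blastula transition of Series 1 and 2 (blue) and of Series 3 (red).

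The first comparison asked how polyA+ levels moved during cleavage, before bulk transcription, with libraries at 2.0, 2.5 and 3.0 hpf set against those at 0, 0.5 and 1.0 hpf. In Series 1, 14 of the 45 members tested rose and 7 fell (edgeR quasi-likelihood test, adjusted p under 0.05), where 56.5% of 11743 genes were called in either direction, 29.8% higher and 26.7% lower. The median log2 fold change was 0.13 over the members and 0.01 over all genes. Of the members tested 31.1% rose and 15.6% fell. Scaled to library totals, which moved the median of all genes to 0.50, the counts were 20 higher and 2 lower. Here and below, some counts under another scaling, tool, block or set of libraries stand without a share of all genes. Such counts show only that the calls depend on the setting and nothing particular to the members. Fold changes of the tests are on the TMM scale unless another scaling is named. They can thus differ, even in sign, from the ratio of the normalised reads beside them. Folds over runs, between clutches and between libraries of 1 hour were taken from normalised reads unless TMM-scaled values are named.

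pdcd11 and pdcd7, both genes of RNA processing, rose most in Series 1. The nucleolar ribosomal RNA processing factor pdcd11 had 893, 1661 and 2342 normalised reads at 2.0 to 3.0 hpf, against 109, 83.4 and 247 at 0 to 1.0 hpf, a log2 fold change of 3.02 ± 0.41 (SE, adjusted p = 0.0016). pdcd7, a protein of the minor spliceosome in mammals, had 1770.1, 2619 and 3432 normalised reads in the later and 161, 242 and 541 in the earlier libraries, a log2 fold change of 2.59 ± 0.39 (SE, adjusted p = 0.0019). For both genes every later library was above every earlier one. Such statements of overlap, here and below, describe the same libraries that gave the calls. They are no further support, and the share of all genes without overlap is not given. The mitochondrial bcl2l13 was at 1745, 2343 and 2128 normalised reads in the later and 169, 389.9 and 413 in the earlier libraries, and ripk4, a kinase of epidermal differentiation in mammals, was at 548, 853 and 1287 in the later and 116, 122 and 211 in the earlier libraries. Their log2 fold changes were 2.18 ± 0.33 and 2.09 ± 0.32 (SE, adjusted p = 0.0019 and 0.0019).

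Among the core regulators, xiap, an IAP that binds caspases directly, rose with them, at 482, 709.7 and 1089.6 normalised reads in the later and 97.9, 108 and 179 in the earlier libraries (log2 fold change 2.08 ± 0.32 SE, adjusted p = 0.0019). casp6, a caspase of the executioner class, did not pass the test, with a log2 fold change of -0.01 ± 0.21. The adaptor fadd, which carries the death receptor signal to its caspases, rose by 1.59 ± 0.28 (SE, adjusted p = 0.0027) on the log2 scale. dffa, the inhibitor and chaperone of the DNA fragmentation nuclease, rose by 1.96 ± 0.46 (SE, adjusted p = 0.0074), while the nuclease dffb had a log2 fold change of 0.15 ± 0.29 (adjusted p = 0.67). Likewise the initiators casp2 and casp9, apaf1, bcl2, mcl1, diablo and tradd had log2 fold changes between -0.62 and 0.52 and did not pass the test. Scaled to library totals, however, casp9, tradd and casp2 passed as higher, with log2 fold changes of 1.01, 0.96 and 0.63 (adjusted p = 0.021, 0.032 and 0.0499), and apaf1 passed as lower without the library at 0 hpf (-0.62, adjusted p = 0.039).

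Of the 6 IAPs tested in Series 1, xiap and birc6 rose and birc7 and birc5.1 fell. The very large ubiquitin-conjugating IAP birc6 was at 2837, 3402 and 4251 normalised reads in the later and 1512, 1324 and 2087 in the earlier libraries (log2 fold change 0.61 ± 0.18 SE, adjusted p = 0.019). The caspase inhibitor birc7 was at 6882, 6769 and 5110.1 normalised reads in the later libraries, against 10030.3, 28041 and 10254 in the earlier ones, a log2 fold change of -1.91 ± 0.47 (SE, adjusted p = 0.0086). The survivin gene birc5.1, whose product serves in chromosome segregation as well as binding caspases, was at 4575, 3650.1 and 3525 in the later and 7222, 5626 and 7273 in the earlier libraries, a log2 fold change of -1.25 ± 0.19 (SE, adjusted p = 0.002). For both, the later and earlier libraries did not overlap, and the library at 0.5 hpf stood highest for birc7. The death receptor gene tnfrsf10b was at 1195, 1184 and 1202 normalised reads in the later libraries, against 2256, 1441 and 1562 in the earlier ones, a log2 fold change of -1.04 ± 0.21 (SE, adjusted p = 0.0041). cycs, which encodes cytochrome c, had a log2 fold change of -0.89 ± 0.23 (SE, adjusted p = 0.01), but its later libraries (4918, 4484 and 4776 normalised reads) overlapped the earlier ones (8282, 4159.5 and 6558). Scaled to library totals, the calls of tnfrsf10b and cycs were lost (adjusted p = 0.073 and 0.17).

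In Series 3 at the same clock hours far fewer genes were called, 5.60% of 10293, with 3.30% higher and 2.29% lower. Of the 41 members tested, pdcd11 and aifm1 rose, and birc7 and tnfrsf10b fell, and all 4 were called in the same direction in Series 1, as were 92.9% of all genes higher and 86.4% of all genes lower in Series 3. pdcd11 had 475, 546 and 806 normalised reads at 2.0 to 3.0 hpf, against 125, 88.2 and 196 at 0 to 1.0 hpf, a log2 fold change of 1.90 ± 0.35 (SE, adjusted p = 0.041). aifm1, a mitochondrial flavoprotein that can promote the breakdown of nuclear DNA after its release, was at 1076, 1259.6 and 1541 in the later and 546, 457 and 653 in the earlier libraries (log2 fold change 0.96 ± 0.21 SE, adjusted p = 0.045). birc7 was at 1362, 1283 and 1244 in the later and 2730.3, 3587 and 2657 in the earlier libraries (log2 fold change -1.49 ± 0.21 SE, adjusted p = 0.041), and tnfrsf10b was at 6019, 5655 and 5422 in the later and 7362, 9785 and 8934 in the earlier libraries (log2 fold change -0.89 ± 0.18 SE, adjusted p = 0.043). In all 4 genes the windows did not overlap, which adds no support, as the same libraries gave the calls. xiap and pdcd7 had log2 fold changes of 1.25 ± 0.48 and 1.82 ± 0.49 and did not pass, although their windows did not overlap either. Leaving out the library at 0.5, 2.0, 2.5 or 3.0 hpf left no member called in either direction, whereas 5 rose and 3 fell without the library at 0 hpf and 3 rose and 3 fell without that at 1.0 hpf. DESeq2 called 5 higher and 3 lower, and the share of all genes called in these settings is not given. At an unadjusted p under 0.05, 11 of the 41 members passed, and 33.0% of all genes. Scaled to library totals the split was 5 higher and 2 lower.

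**Figure D2:**
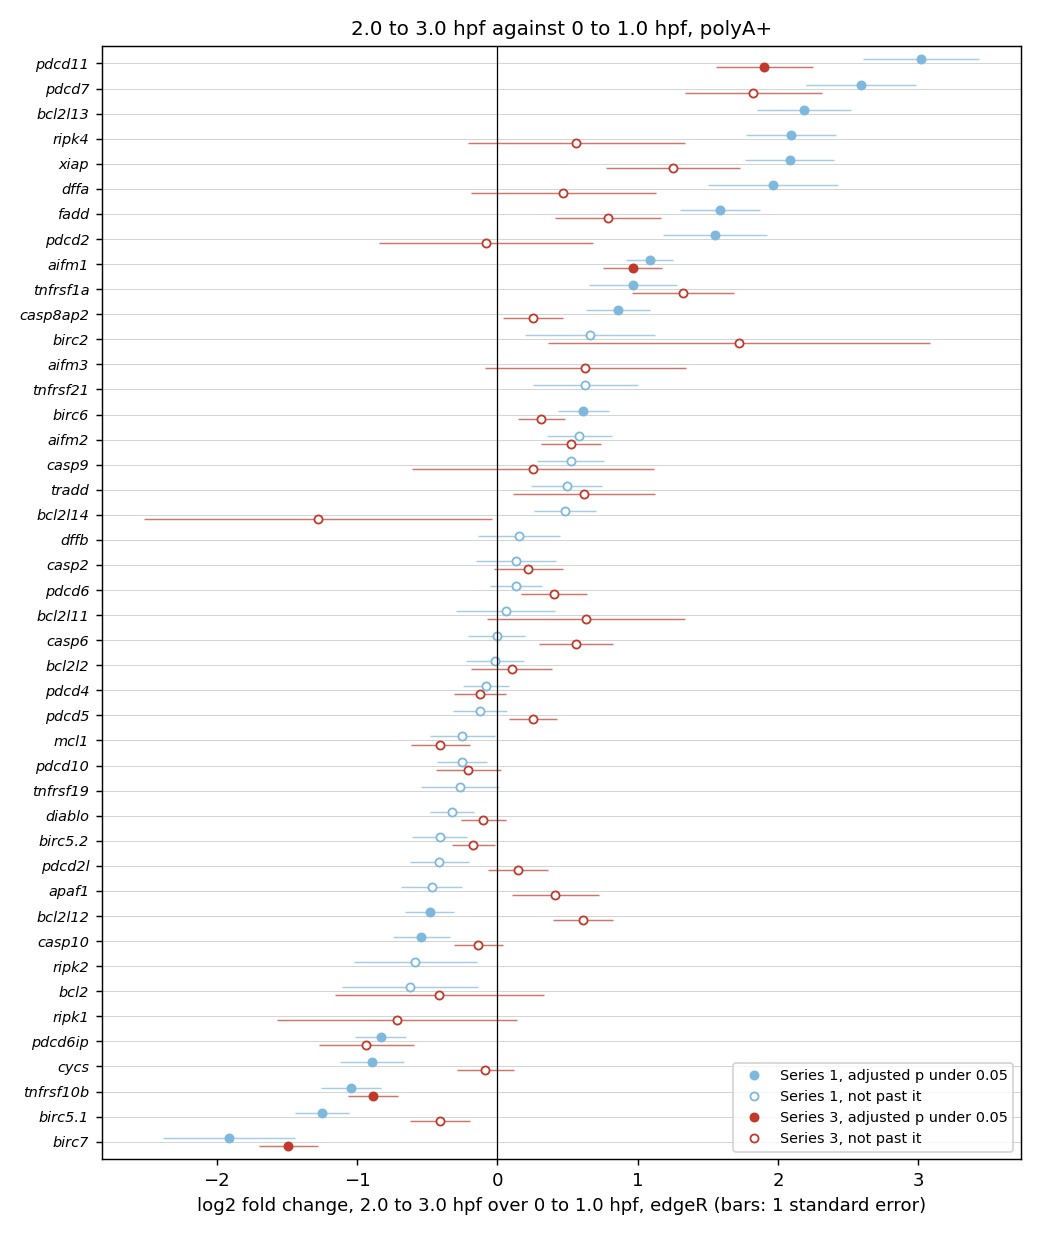
Log2 fold change (x axis, edgeR) of each member shown, 2.0 to 3.0 hpf over 0 to 1.0 hpf, in Series 1 (light blue) and Series 3 (red), with bars of 1 standard error and filled points for adjusted p under 0.05. pdcd11 lies highest in both series (3.02 in Series 1 and 1.90 in Series 3) and birc7 lowest (-1.91 and -1.49).

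Setting polyA+ against Ribo-Zero libraries made from the same RNA asks which messages were enriched or depleted by selection for a tail. At 0 to 3.0 hpf, 15 of 44 members were higher and 15 lower in polyA+ libraries, near the 33.5% higher and 37.3% lower (70.8% in all) of 11521 genes. The median log2 ratio was -0.23 over the members and -0.24 over all genes, and zero on this scale depends on the scaling: with library totals, which put the median of all genes at -1.07, 8 members were higher and 24 lower.

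Survivin and cytochrome c messages were the most enriched in polyA+ RNA. birc5.1 had 16069, 18843, 18600.1 and 18271 normalised reads in polyA+ libraries at 0, 1.0, 2.0 and 3.0 hpf, against 2342, 1532, 1895 and 1716 in Ribo-Zero libraries, a log2 fold change of 4.10 ± 0.17 (SE, adjusted p = 1.1e-06). cycs had 10216, 16738, 15971 and 15834 in polyA+ and 3224, 2726, 2567 and 2169 in Ribo-Zero libraries, a log2 fold change of 3.29 ± 0.20 (SE, adjusted p = 2.4e-06). The second survivin gene, birc5.2, followed at 6543 ± 649 in polyA+ and 2049 ± 149 in Ribo-Zero libraries (SD, n = 4 each, log2 fold change 2.51 ± 0.13). birc5.1 and birc5.2 are related copies, and reads that fitted more than 1 gene were discarded, so the division of reads between them is uncertain. The initiator casp2 had a log2 fold change of 1.67 ± 0.22 (SE, adjusted p = 1.6e-04) and the IAP antagonist diablo one of 1.09 ± 0.12 (SE, adjusted p = 5.8e-05). bcl2 had one of 1.00 ± 0.39 (SE, adjusted p = 0.046), a call that was lost without any 1 of 5 of the 8 libraries.

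At the other end, ripk4, bcl2l13, casp8ap2 and pdcd11 were far lower in polyA+ than in Ribo-Zero RNA. ripk4 had 51.9, 6.71, 46.7 and 32.2 normalised reads in polyA+ libraries, against 1210.4, 1271, 1325 and 1343 in Ribo-Zero libraries, a log2 fold change of -4.38 ± 0.50 (SE, adjusted p = 6.6e-05). bcl2l13 had 25.9, 0, 7.78 and 3.22 in polyA+ and 336, 318, 355 and 435 in Ribo-Zero libraries. Its polyA+ values rested on 18, 0, 4 and 1 counts, of which only the first reached the count minimum. It passed that minimum mainly through the Ribo-Zero libraries, so no fold change or test is given. casp8ap2, whose product binds caspase-8 and in mammals serves histone RNA processing, had 1085, 956, 1197 and 1441 in polyA+, against 25295, 30207, 26640.0 and 27933 in Ribo-Zero libraries (log2 fold change -3.73 ± 0.14 SE, adjusted p = 1.1e-06). In all 3 genes no polyA+ library came near a Ribo-Zero library. pdcd11 was also low in polyA+ RNA, with a log2 fold change of -3.49 ± 0.49 (SE, adjusted p = 2.4e-04). Its polyA+ level was 125, 196, 475 and 806 normalised reads over the 4 hours, while its Ribo-Zero level stayed at 7879.7, 7472, 7674 and 7426.

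Of the caspase inhibitors, xiap averaged 187 ± 121 in polyA+ and 1421 ± 16.3 normalised reads in Ribo-Zero libraries (SD, n = 4 each, log2 fold change -2.15 ± 0.35 SE, adjusted p = 6.0e-04). birc6 averaged 1556 ± 404 in polyA+ and 12257 ± 704 in Ribo-Zero libraries (log2 fold change -2.16 ± 0.16 SE, adjusted p = 5.5e-06). birc7 lay on the other side, at 1998 ± 805 in polyA+ and 976 ± 132 in Ribo-Zero libraries (log2 fold change 1.92 ± 0.35 SE, adjusted p = 0.0011), so the 5 IAPs called split into 3 higher and 2 lower in polyA+ RNA. dffa was lower in polyA+ RNA, with a log2 fold change of -1.98 ± 0.39 (SE, adjusted p = 0.0017), and so was tradd, the adaptor of the tumour necrosis factor receptor, with one of -0.79 ± 0.29 (SE, adjusted p = 0.036). With the hour as a block the calls of tradd and bcl2 were lost (adjusted p = 0.071 and 0.11), and with library totals so were those of bcl2 and diablo (adjusted p = 0.69 and 0.101). casp6, casp9, apaf1, mcl1 and fadd did not pass the test, with log2 fold changes between -0.51 and 0.24. Scaled to library totals, fadd, apaf1 and mcl1 passed as lower in polyA+ RNA, with log2 fold changes of -1.31, -0.91 and -0.72 (adjusted p = 0.0089, 0.01 and 0.0079), although that of mcl1 was 0.13 with TMM.

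**Figure D3:**
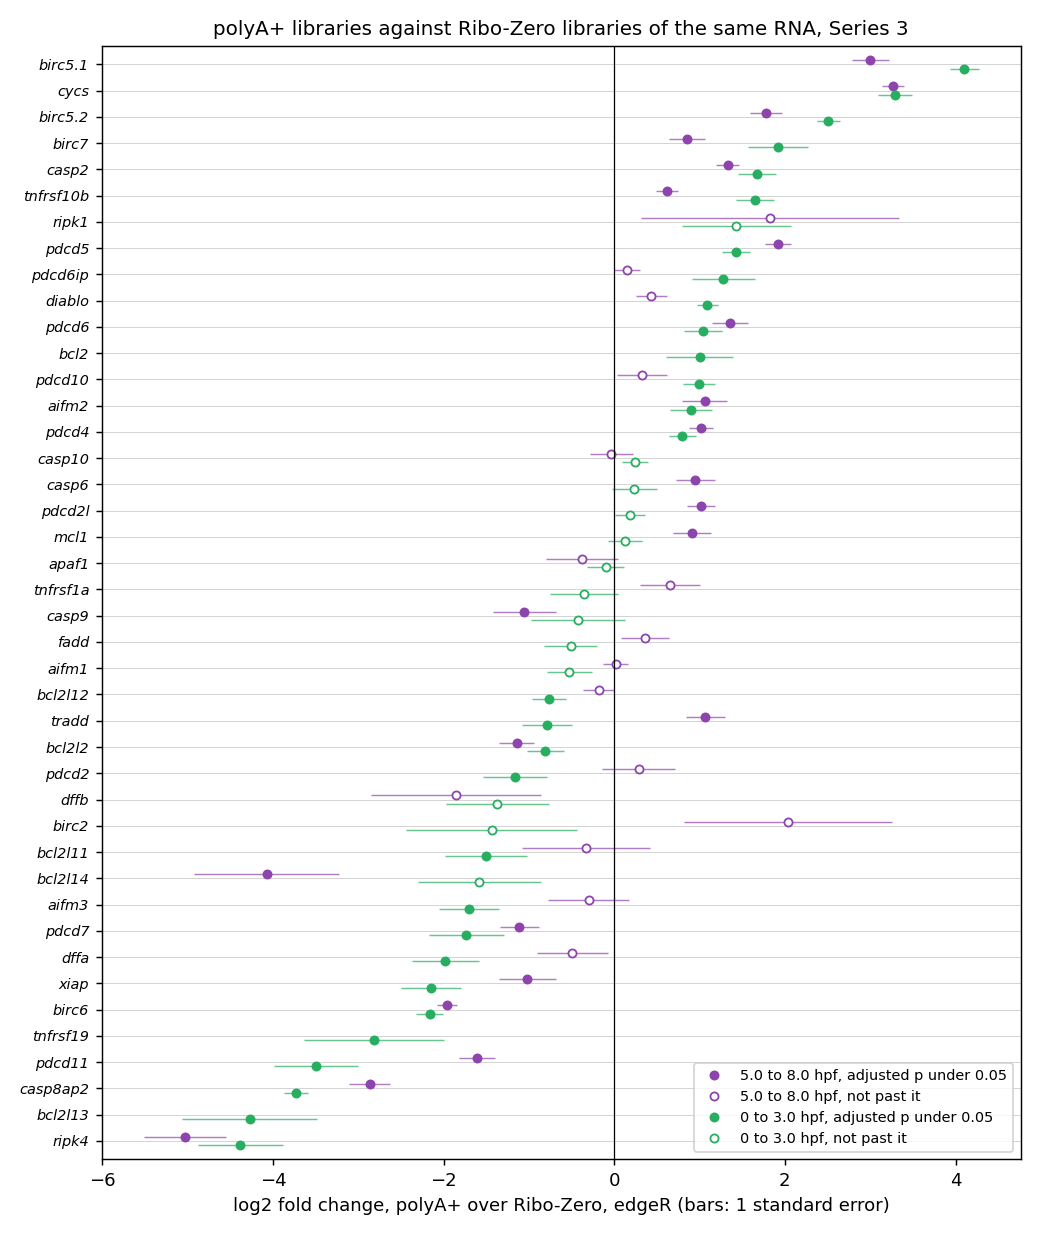
Log2 fold change (x axis, edgeR) of polyA+ over Ribo-Zero libraries of Series 3 for each member shown, at 5.0 to 8.0 hpf (purple) and 0 to 3.0 hpf (green), with bars of 1 standard error and filled points for adjusted p under 0.05. birc5.1 and cycs lie at the high end in both windows, ripk4 lies at the low end in both, and the late point of bcl2l13, which passed the count minimum only through Ribo-Zero libraries, is left out. The early point of bcl2l13 is drawn, although it passed that minimum mainly through Ribo-Zero libraries. The late points of ripk4 and bcl2l14 are drawn too, although low polyA+ counts may limit them.

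Changes in poly(A) tails without a change in RNA amount would move the polyA+ level and leave the Ribo-Zero level in place. The polyA+ slope over 0 to 3.0 hpf minus the Ribo-Zero slope was therefore tested, in log2 units per hour. Of 44 members 5 had a higher polyA+ than Ribo-Zero slope and 1 a lower one, where 17.8% of 11521 genes were called, 9.50% higher and 8.27% lower. The differences were 0.85 ± 0.08 (SE, adjusted p = 0.0064) for pdcd11, 0.75 ± 0.17 (SE, adjusted p = 0.028) for pdcd7, 0.51 ± 0.10 (SE, adjusted p = 0.02) for casp6, 0.47 ± 0.13 (SE, adjusted p = 0.046) for the lipid quinone reductase aifm2 and 0.41 ± 0.09 (SE, adjusted p = 0.024) for aifm1. birc7 had a difference of -0.65 ± 0.15 (SE, adjusted p = 0.032). Its polyA+ level was 2730.3, 2657, 1362 and 1244 normalised reads at 0, 1.0, 2.0 and 3.0 hpf and its Ribo-Zero level 938, 810.0, 1045 and 1112, so the polyA+ level ended lower and the Ribo-Zero level did not. pdcd7 had 74.96, 195, 360.0 and 480.3 in polyA+ and 1438, 1739.6, 1537 and 1569 in Ribo-Zero libraries. With the hour as a block, which both RNA types of 1 extraction share, edgeR called 0 members in either direction. At an unadjusted p under 0.05, 11 of the 44 passed with the block (28.7% of all genes) and 12 without it (37.9% of all genes), and DESeq2 without the block called 9 higher and 2 lower. The ribosomal share of the Ribo-Zero libraries at 2.0 and 3.0 hpf was 27.3% and 35.0%, against 4.31% and 6.01% at 0 and 1.0 hpf, and its part in the slopes was not tested.

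Leaving out single libraries moved these counts widely. The share of all genes called in each setting is not given, so the moves are not read as particular to the members. Without the polyA+ library at 1.0 hpf, 12 members had a higher and 6 a lower polyA+ slope. Without the Ribo-Zero library at 0 or 3.0 hpf none was called in either direction, and without that at 1.0 or 2.0 hpf 1 was higher and none lower. The count lower was 3 without the polyA+ library at 0 hpf, 2 without that at 2.0 hpf and 0 without that at 3.0 hpf. Over the 8 settings that each left out 1 library, the call was lost in 2 for pdcd11, in 4 for casp6, in 5 each for pdcd7 and birc7 and in 7 for aifm2.

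The next question was what happened to the maternal messages and to new ones around the mid-blastula transition and into the gastrula. In Series 2, libraries at 8.0, 8.5, 9.0 and 9.5 hpf were set against those at 2.5, 3.0, 3.5 and 4.0 hpf. Of 46 members tested 14 rose and 23 fell, where 72.0% of 13539 genes were called, 36.8% higher and 35.2% lower. The median log2 fold change was -0.56 over the members and 0.03 over all genes.

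apaf1, its caspase and other initiator and adaptor genes fell. The apoptosome scaffold apaf1 had 223, 121, 123 and 101 normalised reads at 8.0 to 9.5 hpf, against 1173, 1201, 1097 and 1017 at 2.5 to 4.0 hpf, a log2 fold change of -2.80 ± 0.23 (SE, adjusted p = 2.7e-06). Its caspase, casp9, had 61.2, 41.9, 29.8 and 43.8 in the late and 343, 313, 309 and 349.9 in the early libraries (log2 fold change -2.69 ± 0.23 SE, adjusted p = 3.8e-06). casp2, an initiator that acts outside the apoptosome, had 860.0, 762, 725 and 712 in the late and 5876, 5353, 5562 and 3258 in the early libraries (log2 fold change -2.51 ± 0.22 SE, adjusted p = 3.8e-06). In each of the 3 genes the windows did not overlap. The receptor adaptors tradd and fadd fell by 3.08 ± 0.39 and 1.33 ± 0.37 on the log2 scale (SE, adjusted p = 5.1e-05 and 0.008). casp10 and casp6 fell by 0.65 ± 0.18 and 1.22 ± 0.16 (SE, adjusted p = 0.0082 and 6.2e-05).

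cycs rose, at 7626, 10374, 9728 and 9547 in the late and 5626, 5095, 5066 and 6052 in the early libraries (log2 fold change 1.00 ± 0.17 SE, adjusted p = 3.1e-04). Cytochrome c also serves respiration, and cycs rose while apaf1 fell.

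Anti-apoptotic Bcl2 genes rose in part. mcl1, a short-lived guardian of mitochondria, had 6362, 6127, 6841 and 6336 normalised reads in the late and 3515, 3114, 3053 and 2694 in the early libraries, a log2 fold change of 1.27 ± 0.16 (SE, adjusted p = 4.1e-05). Its lowest values were 2038 and 2388 in the 2 libraries at 4.5 hpf and 2295 at 5.0 hpf. bcl2 was low throughout, at 18.5, 29.8, 23.5 and 34.7 in the late and 8.95, 17.2, 12.6 and 3.88 in the early libraries (log2 fold change 1.54 ± 0.45 SE, adjusted p = 0.0099). bcl2l2, the anti-apoptotic Bcl-w gene, fell by 1.22 ± 0.20 on the log2 scale (SE, adjusted p = 2.8e-04). The BH3-only bcl2l11, which encodes Bim, had a log2 fold change of -0.28 ± 0.24 (SE, adjusted p = 0.32) and did not pass. bcl2l14 fell by 2.70 ± 0.33 (SE, adjusted p = 3.7e-05), and its late libraries held 200.2, 67.3, 66.9 and 68.5 normalised reads.

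Among the IAPs, 2 of 6 rose and 4 fell, and the range was wide. birc5.1 fell most of all members, to 642, 385, 231 and 119 normalised reads in the late libraries, against 7085, 6243, 5351 and 4357 in the early ones, a 15.1-fold difference (log2 fold change -3.91 ± 0.43 SE, adjusted p = 1.9e-05). birc5.2 rose by 0.78 ± 0.20 (SE, adjusted p = 0.0052), at 2596, 3664, 3131 and 2766 in the late and 2404, 2255, 1836 and 1709 in the early libraries. birc7 fell to 223, 99.3, 68.7 and 43.8 in the late libraries, against 943, 816, 1126 and 1287 in the early ones (log2 fold change -3.10 ± 0.40 SE, adjusted p = 5.7e-05), although it stood higher, at 2541, 2155, 2318 and 2323, from 4.5 to 5.5 hpf. xiap fell by 0.97 ± 0.25 on the log2 scale (SE, adjusted p = 0.005) and likewise passed through a maximum, with 1763 normalised reads at 5.5 hpf, 342 at 9.5 hpf and 603 at 2.5 hpf. The antagonist diablo fell by 1.16 ± 0.18 (SE, adjusted p = 1.9e-04), and dffb fell by 1.16 ± 0.27 (adjusted p = 0.0029) while dffa had a log2 fold change of 0.59 ± 0.29 (adjusted p = 0.089).

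Of the 4 receptors tested, 1 rose and 3 fell. tnfrsf10b, the frog gene named after the receptors of the ligand TRAIL, fell to 73.8, 56.3, 35.3 and 31.04 normalised reads in the late libraries, against 697, 567, 570.4 and 1067 in the early ones (log2 fold change -3.68 ± 0.31 SE, adjusted p = 2.9e-06). tnfrsf19 was at 15.5, 14.3, 24.4 and 59.3 in the late and 593, 485, 464 and 281 in the early libraries (log2 fold change -3.75 ± 0.51 SE, adjusted p = 8.1e-05), and its 2 libraries at 4.5 hpf held 194 and 398. tnfrsf21, a death-domain receptor known as DR6, rose most of all members tested. aifm3 also rose, at 30.1, 36.4, 95.8 and 309 in the late and 17.9, 14.1, 33.9 and 38.01 in the early libraries (log2 fold change 2.49 ± 0.75 SE, adjusted p = 0.012), with windows that overlapped.

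**Figure D4:**
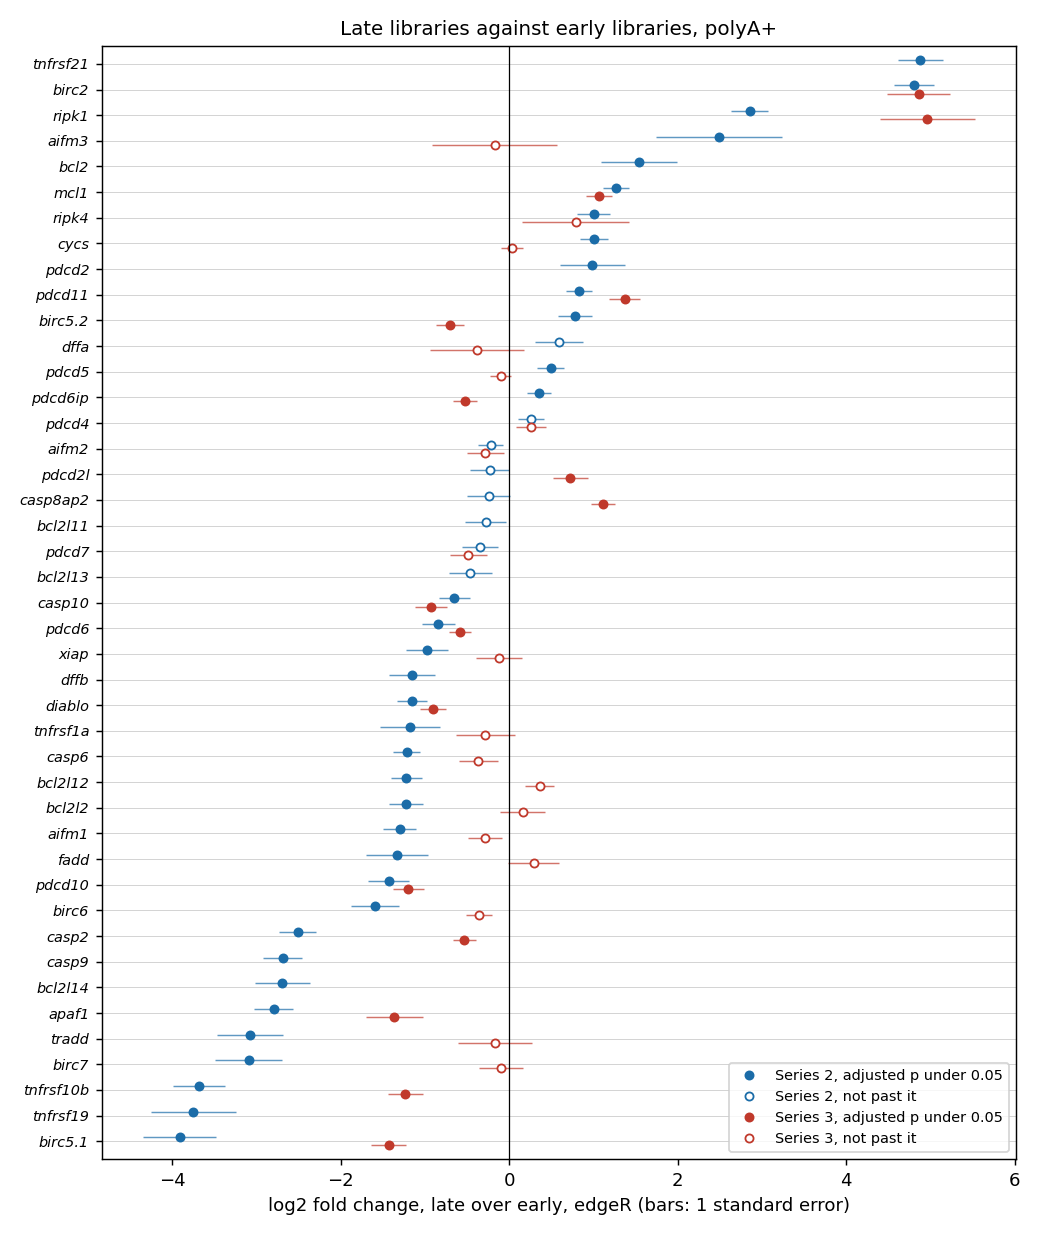
Log2 fold change (x axis, edgeR), late over early polyA+ libraries, of each member shown in Series 2 (blue, 8.0 to 9.5 over 2.5 to 4.0 hpf) and Series 3 (red, 7.5 to 9.0 over 3.0 to 4.5 hpf), with bars of 1 standard error and filled points for adjusted p under 0.05. tnfrsf21 lies highest in Series 2, followed by birc2 and ripk1, which lie highest in Series 3, and birc5.1 lies lowest in both. Points of members that passed the count minimum through 1 group only, such as that of tnfrsf21 in Series 3, are left out. The Series 3 point of ripk1 is drawn, although it passed mainly through the late libraries.

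Series 3, which ended at an earlier stage, was compared in the same way. Its libraries at 7.5, 8.0, 8.5 and 9.0 hpf, which correspond to 6.0 to 7.2 hpf of Series 2, were set against those at 3.0, 3.5, 4.0 and 4.5 hpf. Of 37 members tested 8 rose and 11 fell, where 53.9% of 10243 genes were called, 28.5% higher and 25.3% lower, and with library totals 6 rose and 13 fell. Of these 37 members, all tested in Series 2 too, 6 rose in both series, 8 fell in both, and 2, birc5.2 and pdcd6ip, rose in Series 2 and fell in Series 3. Over all 10102 genes tested in both, 19.2% rose in both, 17.1% fell in both and 2.45% rose in Series 2 and fell in Series 3. Late libraries of Series 3 were shallower, with total counts of 4539916 to 6549992, against 7605189 to 11334024 in the early ones, and the part of depth was not tested.

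apaf1 fell in Series 3 too, to 111, 74.5, 183 and 139 normalised reads in the late libraries, against 471, 254, 484 and 317 in the early ones (log2 fold change -1.37 ± 0.34 SE, adjusted p = 0.0032). birc5.1 was at 7852, 5237, 4526 and 3202 in the late and 18271, 15915, 16520.2 and 14079 in the early libraries (log2 fold change -1.43 ± 0.20 SE, adjusted p = 3.9e-05), tnfrsf10b was at 2003, 2501, 1666 and 1232 in the late and 5422, 5836, 4556 and 4517 in the early libraries (log2 fold change -1.24 ± 0.21 SE, adjusted p = 1.6e-04), and pdcd10, a scaffold of vascular junction signalling, was at 1356, 777, 761 and 1178 in the late and 3033, 2829, 2791 and 2137 in the early libraries (log2 fold change -1.20 ± 0.19 SE, adjusted p = 8.1e-05). In these 4 genes no late library reached an early one. casp2 and diablo fell by 0.53 ± 0.13 and 0.90 ± 0.15 on the log2 scale (SE, adjusted p = 0.0039 and 1.7e-04). mcl1 rose, at 2225, 2544, 3109.7 and 3244 in the late and 1544, 1380.1, 1651 and 1629 in the early libraries (log2 fold change 1.07 ± 0.15 SE, adjusted p = 3.5e-05), and pdcd11 rose, at 1467, 1724, 2038 and 2549 in the late and 806, 784, 955 and 977 in the early libraries (log2 fold change 1.37 ± 0.18 SE, adjusted p = 2.1e-05). casp6 and dffa had log2 fold changes of -0.37 ± 0.23 and -0.38 ± 0.56 and did not pass. birc7, xiap, fadd, tradd and cycs, all called in Series 2, had log2 fold changes between -0.17 and 0.29 and did not pass in Series 3, where casp9 and bcl2 had too few counts to be tested. The difference between the series was not tested.

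In Ribo-Zero libraries, which count RNA whatever its tail, 3 of 44 members rose and 4 fell at 6.0 to 8.0 hpf relative to 0 to 3.0 hpf, where 16.7% of 11436 genes were called, 8.75% higher and 7.90% lower. ripk1 rose by 2.81 ± 0.70 (SE, adjusted p = 0.03) on the log2 scale, ripk4 by 0.43 ± 0.12 (SE, adjusted p = 0.039) and casp2 by 0.39 ± 0.11 (SE, adjusted p = 0.039). casp2 had 1701, 1656 and 2042 normalised reads in the late and 1411, 1522, 1421 and 1562 in the early libraries. mcl1 fell by 0.63 ± 0.13 (SE, adjusted p = 0.018), at 1559, 1651 and 1744 in the late and 3425, 2681, 2570.0 and 2330.2 in the early libraries, whereas its polyA+ level in the same clutch rose between the windows of the comparison above. pdcd10, tradd and pdcd6ip, a protein of membrane scission, fell by 0.55 ± 0.11, 0.49 ± 0.15 and 0.38 ± 0.10 on the log2 scale (SE, adjusted p = 0.018, 0.049 and 0.034). birc5.1, birc7 and apaf1 had log2 fold changes between -0.46 and 0.42 and did not pass. birc5.1 in particular had 1846, 2237 and 1439 in the late and 2342, 1532, 1895 and 1716 in the early Ribo-Zero libraries.

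These Ribo-Zero counts changed with single libraries, and the share of all genes called in each such setting is not given. Without the library at 6.0 hpf 5 members rose and 13 fell, and without that at 7.0 hpf, or without that at 1.0 hpf, none was called in either direction. Without the library at 0 hpf 1 fell, without that at 2.0 or at 8.0 hpf 2 fell, and in these cases, as without that at 3.0 hpf, none rose. The call of tradd was lost in each of the 7 settings without 1 library, and those of ripk1, ripk4 and casp2 in 6 of the 7. At an unadjusted p under 0.05, 22 of the 44 members and 36.8% of all genes passed in the full comparison, and DESeq2 called 5 higher and 4 lower. Library totals gave 1 higher and 9 lower. The library at 8.0 hpf had a ribosomal share of 29.1%, and its part was not tested.

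**Figure D5:**
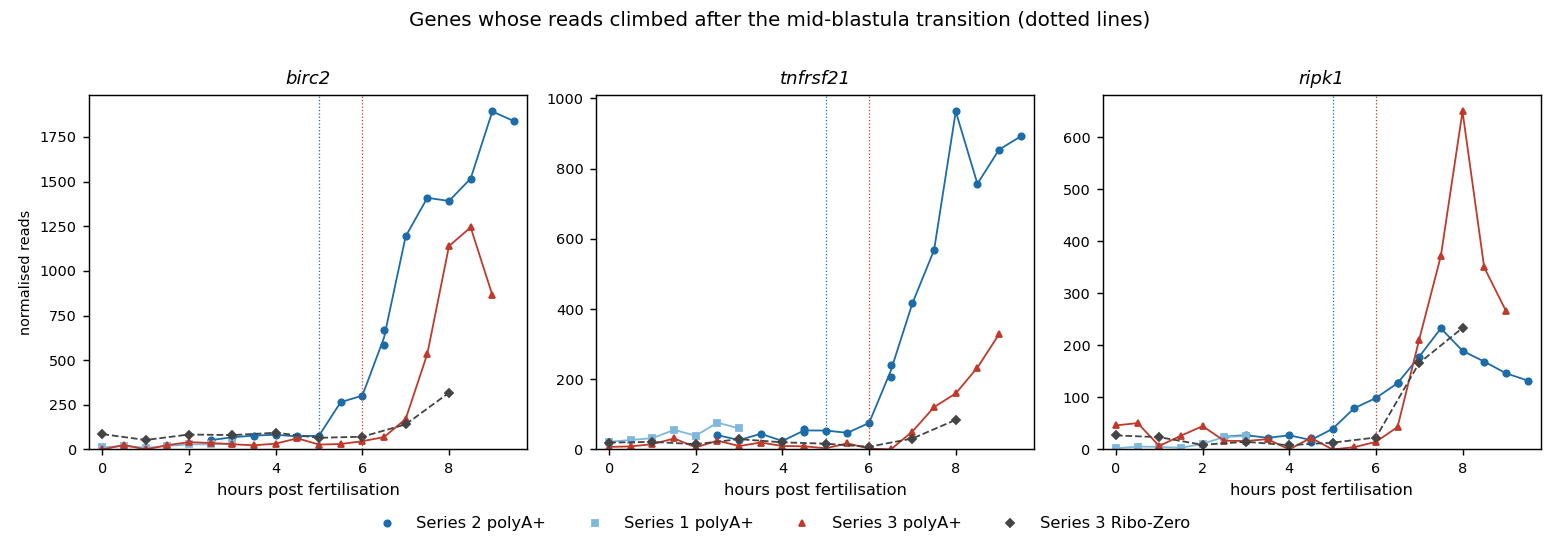
Normalised reads (linear axis from 0) of birc2, tnfrsf21 and ripk1 against hours post fertilisation, with a point for each library of Series 2, Series 1, Series 3 polyA+ and Series 3 Ribo-Zero and lines through the means of each hour. All 3 genes climb after the dotted line of their series, blue for Series 1 and 2 and red for Series 3, and birc2 ends at 1839 in Series 2.

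The genes birc2, tnfrsf21 and ripk1 had the largest rises of the members in Series 2 and were high late in Series 3 as well. birc2 (Xetrov72029593) encodes the ubiquitin ligase cIAP1, which modifies ripk1 at tumour necrosis factor receptors in mammals. It had 1391, 1517, 1893 and 1839 normalised reads at 8.0 to 9.5 hpf of Series 2, against 52.1, 68.2, 77.5 and 82.2 at 2.5 to 4.0 hpf, a 28-fold difference (log2 fold change 4.81 ± 0.24 SE, adjusted p = 7.8e-08). In Series 3 it had 536, 1139, 1244 and 865 in the late and 29.01, 23.1, 32.5 and 62.1 in the early libraries, a 29.1-fold difference (log2 fold change 4.86 ± 0.38 SE, adjusted p = 9.6e-08). In Series 2 it had 77.2 normalised reads at 5.0 hpf and 265 at 5.5 hpf, and in Series 3 69.3 at 6.5 hpf, 170.3 at 7.0 hpf and 536 at 7.5 hpf. Its Ribo-Zero level was 71.2, 140.1 and 318 at 6.0, 7.0 and 8.0 hpf, against 85.8, 52.95, 83.6 and 80.5 at 0 to 3.0 hpf, with a log2 fold change of 1.25 ± 0.46 (SE, adjusted p = 0.08).

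tnfrsf21 (Xetrov72004910) had 963, 757, 854 and 892 normalised reads in the late and 40.7, 26.6, 44.5 and 24.05 in the early libraries of Series 2, a 29.5-fold difference (log2 fold change 4.88 ± 0.27 SE, adjusted p = 1.8e-07), and 121, 159.7, 233 and 328 in the late and 9.67, 19.8, 9.75 and 8.88 in the early libraries of Series 3. The early values of Series 3 rested on 3 to 6 counts, so that tnfrsf21 passed the count minimum there only through the late libraries, and no fold change or test is given for it. ripk1 (Xetrov72033869), the kinase at the branch between survival and death signals, had 189, 169, 146 and 132 in the late and 24.4, 27.4, 22.3 and 27.2 in the early libraries of Series 2 (log2 fold change 2.85 ± 0.22 SE, adjusted p = 1.7e-06). In Series 3 ripk1 had 372, 649, 349.8 and 266 in the late and 16.1, 19.8, 0 and 22.2 in the early libraries. Its early values there rested on 0 to 10 counts. It thus passed the count minimum mainly through the late libraries, and no fold change or test is given for Series 3. In both series the late and early libraries of all 3 genes did not overlap. The highest ripk1 value of Series 2 was 233 at 7.5 hpf and that of Series 3 649 at 8.0 hpf. In Ribo-Zero libraries ripk1 had 233 normalised reads at 8.0 hpf, 166 at 7.0 hpf and 22.9 at 6.0 hpf. Smaller rises in both series included those of pdcd11 and mcl1.

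A stricter rule was applied to find onsets, the start of a run of at least 3 time points in which each step exceeded a chance step set from the level and the fold over the run was at least 10 after adding 10 reads. In Series 3 only ripk4 had such a rising run, with 0 normalised reads at 5.5 hpf and 90.7 at 6.5 hpf, where 1.74% of 20193 genes had one. The polyA+ values next to the run were 10.2 at 5.0 hpf and 51.1 at 7.0 hpf, and with TMM-scaled values ripk4 had no run while birc2 had one, at 6.5 to 8.0 hpf and 20.2-fold. No member had a rising run in Series 1 (0.156% of 21750 genes did) or in Series 2 (1.53%). None had a falling run in any series (0% of genes in Series 1, 0.0046% in Series 2 and 0.00495% in Series 3). At low levels the chance step is larger than the level itself, so no fall from there can be called. The lack of falling runs was therefore set largely by the rule and says nothing about the members. With a fold of at least 5, birc2 in Series 3 (7.0 to 8.0 hpf, 6.37-fold) and pdcd7 in Series 1 (0.5 to 1.5 hpf, 5.77-fold) joined, where 2.74% and 0.372% of all genes had such runs, and with an intercept of -0.5 in the chance step, birc2, tnfrsf21 and ripk1 had rising runs in Series 3 (3.70% of all genes did), tnfrsf21 in Series 2 (3.75%) and pdcd11 and pdcd7 in Series 1 (25.2-fold and 20.1-fold, 2.55% of all genes). At that intercept birc5.1, birc7, tnfrsf10b and tnfrsf19 had falling runs in Series 2, with onsets at 7.0, 5.5, 5.5 and 5.0 hpf, where 3.11% of all genes had one, and bcl2l11 had one in Series 3 (1.46%). In Series 1 it gave 554 genes with a rising and 9 with a falling run, against 34 and 0 in the main setting. Its counts lie nearer to those the study reports for its first wave and early falls. Members without a run in the main setting may therefore have an onset by the study's rule.

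Late libraries of Series 3 were compared in the same way between RNA types. At 5.0 to 8.0 hpf, 16 of 42 members were higher and 10 lower in polyA+ than in Ribo-Zero libraries, where 66.0% of 11382 genes were called, 32.5% higher and 33.5% lower, and with library totals 9 were higher and 11 lower. cycs had 13275, 15482, 11374 and 9824 normalised reads in polyA+ and 1951, 2253, 1791 and 1634 in Ribo-Zero libraries (log2 fold change 3.27 ± 0.13 SE, adjusted p = 4.6e-07), and birc5.1 had 13193, 12132, 10022 and 5237 in polyA+ and 1811, 1846, 2237 and 1439 in Ribo-Zero libraries (log2 fold change 3.00 ± 0.22 SE, adjusted p = 4.4e-06). pdcd5, which binds chromatin regulators and chaperonins, followed with a log2 fold change of 1.92 ± 0.15 (SE, adjusted p = 8.1e-06). bcl2l13 had 0, 7.28, 6.81 and 15.97 in polyA+ and 401, 315, 441 and 441 in Ribo-Zero libraries. Its polyA+ values rested on 0 to 3 counts, and it passed the count minimum only through the Ribo-Zero libraries, so no fold change or test is given. Further down, ripk4 had 10.2, 24.3, 51.1 and 42.6 in polyA+ and 1429, 1388, 1625 and 1828 in Ribo-Zero libraries. In these polyA+ libraries 1 count was worth up to 5.32 normalised reads. The polyA+ values of ripk4 thus rested on few counts, and no fold change or test is given. casp8ap2 was lower in polyA+ RNA, with a log2 fold change of -2.86 ± 0.24. bcl2l14 was also called lower, but had too few counts to be tested in the polyA+ late change of Series 3. Its polyA+ values here may rest on few counts as well, so no fold change or test is given for it either. Of the 42 members tested in both windows, 11 were higher and 8 lower in polyA+ RNA in both, against 24.4% and 24.7% of all genes tested in both, and tradd alone was lower in the early and higher in the late window, a late call that was lost with library totals (adjusted p = 0.11).

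The change of this ratio between the windows was itself tested. For 6 of 44 members the polyA+ to Ribo-Zero ratio was higher at 5.0 to 8.0 hpf than at 0 to 3.0 hpf and for 5 it was lower, where 36.7% of 11193 genes were called, 18.9% higher and 17.7% lower. The ratio rose by 1.93 ± 0.52 (SE, adjusted p = 0.011) on the log2 scale for pdcd11, by 1.90 ± 0.36 (SE, adjusted p = 0.0023) for tradd, by 1.54 ± 0.57 (SE, adjusted p = 0.046) for dffa and by 1.50 ± 0.57 (SE, adjusted p = 0.049) for pdcd2, a chaperone of ribosomal protein. The polyA+ values of pdcd2 were low, with 29.01 normalised reads at 3.0 hpf and 15.97 at 8.0 hpf. At 8.0 hpf 1 count was worth 5.32 normalised reads, so its ratio change rests on few counts. The ratio fell by 1.09 ± 0.41 for pdcd6ip (SE, adjusted p = 0.048), 1.07 ± 0.26 for birc5.1 (adjusted p = 0.0072), 0.99 ± 0.25 for tnfrsf10b (adjusted p = 0.009) and 0.70 ± 0.23 for birc5.2 (adjusted p = 0.027). For birc5.1 the polyA+ values were 13193, 12132, 10022 and 5237 late and 16069, 18843, 18600.1 and 18271 early, while the Ribo-Zero values were 1811, 1846, 2237 and 1439 late and 2342, 1532, 1895 and 1716 early, so only the polyA+ windows stood apart. casp2, casp6, casp9, apaf1, cycs, mcl1, xiap, fadd and bcl2 did not pass.

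Scaling and single libraries moved these ratio counts, which stand here without the share of all genes called in each setting. With library totals 9 members were higher and none lower, with DESeq2 size factors 4 were higher and 6 lower, and with DESeq2 itself 5 were higher and 6 lower. The calls of pdcd6ip, dffa and pdcd2 were each lost in 12 of 16 settings that left out 1 library, and that of diablo in 10. Without the polyA+ library at 3.0 hpf, 12 members were higher. The count of members lower was 2 without the polyA+ library at 7.0 hpf or the Ribo-Zero library at 2.0 or 3.0 hpf, and 3 without the Ribo-Zero library at 0, 1.0, 5.0, 6.0 or 7.0 hpf.

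Series 1 and Series 2 overlapped at 2.5 and 3.0 hpf and so gave values of 2 females at the same age, with 1 library an hour and no test. Folds were taken after adding 10 reads to each mean. Of 46 members measured, 5 were at least 2-fold higher and 8 at least 2-fold lower in Series 2 than in Series 1, where 23.7% of 12479 genes differed by as much, 11.3% higher and 12.4% lower. The normalised reads of birc7 were 943 and 816 for the clutch of Series 2, against 6769 and 5110.1 for that of Series 1, a log2 difference of -2.74, and bcl2l13 had 488 and 631 in Series 2 and 2343 and 2128 in Series 1, a log2 difference of -1.98. In the other direction birc6 had 9061 and 10486 in Series 2 and 3402 and 4251 in Series 1 (log2 difference 1.35). In each of these 3 genes both values of one series lay beyond both of the other. Series 3 differed further in colony, kit and sequencer, and was at an earlier stage at the same hour, and these cannot be told apart. At 3.0 hpf its polyA+ library had 32.2 normalised reads of ripk4 and 3.22 of bcl2l13, against 1138 and 631 in Series 2. That value of bcl2l13 in Series 3 was 1 count.

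Of 28 further gene names of the pathway that are not members, 24 had rows in the table of Series 1 and 2 and 23 in that of Series 3. In Series 1 cleavage 5 of 19 tested rose and 6 fell, against 29.8% and 26.7% of all genes. In the late change of Series 2 11 of 19 rose and 6 fell (36.8% and 35.2% of all genes), and in that of Series 3 3 of 17 rose and 3 fell (28.5% and 25.3%). In early polyA+ against Ribo-Zero RNA 8 of 19 were higher and 4 lower (33.5% and 37.3%). The caspase substrate parp1, a DNA repair enzyme, rose most in both late changes, with log2 fold changes of 5.91 in Series 2 and 4.53 in Series 3.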

How the data were processed

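Whole-embryo polyA+ and Ribo-Zero RNA was sequenced as 39-base (Series 1 and 2) or 50-base (Series 3) paired reads. The authors aligned reads with Bowtie 0.12.7, dropped any read that fitted several genes, and deposited whole-number counts per gene. They also deposited a normalised signal per gene, which is the count per 25000000 reads without the ribosomal row. Gene rows were used, leaving out 3 and 7 rows that are not genes, of which the ribosomal row held up to 6.67% of polyA+ and 35.0% of Ribo-Zero counts, and 56 of 57 members had a RefSeq symbol.

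Counts were tested with edgeR 4.0.16 in R 4.3.3 (TMM scaling, quasi-likelihood F test, Benjamini-Hochberg adjustment over all genes tested, a minimum of 10 counts in 50% or more of the fitted libraries, threshold 0.05), with a script first tested on simulated data. Counts of members called include 4 that passed the minimum through 1 group only, ripk1 in Series 1 cleavage, ripk2 in the Series 2 and tnfrsf21 in the Series 3 late change, and bcl2l13 in late polyA+ against Ribo-Zero RNA. They also include bcl2l13 in early polyA+ against Ribo-Zero RNA and ripk1 in the Series 3 late change, which passed mainly through 1 group. In late polyA+ against Ribo-Zero RNA, ripk4 and bcl2l14 are counted too, although low polyA+ counts may limit them. Each comparison was fitted on the libraries of its own windows, without the hour as a block. Alternatives were DESeq2 1.42.0, other scalings and count minimums, each library left out, and the block. PolyA+ and Ribo-Zero libraries of 1 hour came from 1 RNA sample, which pairs them, and their deviations from the group means correlated by 0.0415 to 0.0632 at 0 to 3.0 hpf and by 0.507 to 0.706 at 5.0 to 8.0 hpf. The onset rule did not join runs. Named were core regulators, in each comparison the 4 members with the largest change in each direction among those past the threshold, and members with a run. Some members that this rule names are counted but not reported here by name. Others named were chosen after their values were seen. The members and lists were chosen with earlier results of these data known. Figures and counts used Python 3.11.15, numpy 2.4.6, pandas 2.3.3 and matplotlib 3.10.9.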

Additional observations from a re-analysis of the deposited data

Results flagged for a closer look

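In 14 of 207 windows of 4 libraries, 1 library stood far from the other 3. For replicates of 1 level the criterion would pick about 1 in 20, or about 10 windows. These windows hold successive times, so a change over time can pass it too, and the 10 is not a chance count here. casp8ap2, flagged at 4.0 hpf of Series 2, still had 7097 and 5073 normalised reads in the libraries at 4.5 hpf. The measure given is the gap to the nearest library over the range of the window. In Series 2 at 8.0 to 9.5 hpf it was 0.988 for bcl2l14 (highest at 8.0 hpf), 0.961 for casp8ap2 (lowest at 8.5 hpf) and 0.897 for xiap (highest at 8.0 hpf), and at 2.5 to 4.0 hpf 0.894 for casp8ap2 and 0.849 for pdcd5, both highest at 4.0 hpf. In polyA+ libraries of Series 3 it was 0.862 for pdcd2 at 7.5 to 9.0 hpf (highest at 8.5 hpf). At 3.0 to 4.5 hpf of the same series it was 0.835 for casp9 and 0.842 for cycs, both highest at 3.0 hpf, 0.872 for pdcd2 and 0.844 for pdcd5, both highest at 4.0 hpf, and 0.896 for pdcd6ip (lowest at 3.5 hpf). In Ribo-Zero libraries it was 0.839 for birc2 (lowest at 1.0 hpf) and 0.833 for tradd (lowest at 0 hpf) in the window of 0 to 3.0 hpf, and 0.882 for casp2 (highest at 8.0 hpf) in that of 5.0 to 8.0 hpf.

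PolyA+ and Ribo-Zero RNA differed in slope over 0 to 3.0 hpf, in log2 units per hour, by -0.652 for birc7, 0.41 for aifm1, 0.47 for aifm2, 0.506 for casp6, 0.753 for pdcd7 and 0.851 for pdcd11. The polyA+ to Ribo-Zero ratio differed between the late and the early window, on the log2 scale, by -1.09 for pdcd6ip, -1.07 for birc5.1, -0.994 for tnfrsf10b, -0.695 for birc5.2, -0.616 for diablo, 0.869 for pdcd2l, 0.914 for casp8ap2, 1.50 for pdcd2, 1.54 for dffa, 1.90 for tradd and 1.93 for pdcd11. birc5.2 moved in opposite directions in the late changes of the 2 polyA+ series, by 0.784 in Series 2 and -0.704 in Series 3, with no overlap between windows in either. That difference was not tested, and the windows of the series cover different stages.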

How the results depend on the processing

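Of the values of named members under all alternatives, 2362 were counted as unchanged, 181 lost the call and 64 gained one. Counted as unchanged, too, was any change of sign without a call on either side. The same holds for any DESeq2 value of the same sign without an adjusted p. A further 7 values moved by more than the spread, and 1 reversed in sign with a call. The reversed value was mcl1 in early polyA+ against Ribo-Zero RNA with library totals (-0.72 on the log2 scale). With library totals, Series 1 cleavage had 2 members lower, Series 3 cleavage 5 higher, the Ribo-Zero late change 1 higher and 9 lower, early polyA+ against Ribo-Zero 8 higher and 24 lower, the late comparison 9 higher, the slope difference 9 higher and the ratio change 0 lower. The counts of members in this paragraph, and the ranges over left-out libraries below, stand without the share of all genes called. They show dependence on the setting only. Library totals put the median log2 value of all genes at 0.25 in Series 3 cleavage, -0.19 in both polyA+ late changes, -0.12 in the Ribo-Zero late change, -0.53 in the late comparison and 0.26 in the ratio change. DESeq2 called 5 higher in Series 3 cleavage, 5 higher in the Ribo-Zero late change, and 9 higher and 2 lower in slope, and DESeq2 size factors gave 2 lower in slope. A minimum of 50 counts gave 4 higher in Series 3 cleavage, and no filter gave 2 lower in the ratio change. With the hour as a block, the slope difference had 0 higher and 0 lower, the early comparison 14 and 14, the late one 17 and 9 and the ratio change 6 and 5. The block also ended the calls of casp9 in the late comparison (adjusted p = 0.095) and pdcd2 in the ratio change (0.12), and added, among others, diablo in the late comparison and mcl1 in the ratio change.

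Rising runs numbered 2 in Series 1, 1 in Series 2 and 4 in Series 3 with an intercept of -0.5 (2.55%, 3.75% and 3.70% of all genes), 1 in Series 1 and 2 in Series 3 with a fold of at least 5 (0.372% and 2.74%), and 2, 1 and 2 with a fold of at least 2 (0.506%, 2.40% and 2.90%). Falling runs at that intercept numbered 4 in Series 2 and 1 in Series 3 (3.11% and 1.46%). Between clutches, TMM-scaled values gave 3 members at least 2-fold higher and 10 lower in Series 2 than in Series 1. Of 12449 genes, 928 were higher and 1853 lower on that scale, 22.3% in all.

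Leaving out 1 library gave these ranges of members higher and lower: 11 to 14 and 5 to 6 in Series 1 cleavage, 0 to 5 and 0 to 3 in Series 3 cleavage, 11 to 16 and 22 to 24 in the Series 2 gastrula change, 7 to 9 and 11 to 12 in the Series 3 late change, 0 to 5 and 0 to 13 in the Ribo-Zero late change, 14 to 18 and 13 to 16 in the early and 16 to 18 and 8 to 10 in the late polyA+ against Ribo-Zero comparison, 0 to 12 and 0 to 6 in slope, and 4 to 12 and 2 to 6 in the ratio change. Depth limits low genes most in late Series 3, where 1 count is worth up to 6.48 normalised reads in Ribo-Zero libraries. The floor at a count of 0 covers counting error only.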
